A study of Mus musculus with 4 samples.

Results

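The genes described here are 36 genes of the cell division cycle, taken by name from the 21840 genes of the table. Their products fall into 2 classes: 20 act in G2 and mitosis, and 16 act at the G1/S transition or in DNA replication. All 36 had a row, and all 36 were among the 12515 genes that passed the filter on low values. They were measured by RNA sequencing in 4T1, a mouse mammary carcinoma line of epithelial origin labelled wild type, in 2 libraries from cells given recombinant IL-17A (rIL17) and 2 libraries from cells given phosphate-buffered saline (PBS). IL-17A is an inflammatory cytokine secreted mainly by lymphocytes, and epithelial cells carry its receptor. All 4 libraries came from this single line, grown in culture medium with fetal bovine serum, penicillin and streptomycin, without host tissue. The dose and duration of the treatment were not found in the labels. The labels also do not say whether replicates were separate cultures, so the spread behind each p-value may be technical.

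A cell commits to division in G1, when cyclin D with CDK4 and then cyclin E with CDK2 phosphorylate the retinoblastoma protein and free the E2F transcription factors. E2F proteins switch on genes for origin licensing, nucleotide supply and DNA synthesis. Cyclin A and cyclin B with CDK1 then drive entry into mitosis, while the B-MYB and FOXM1 transcription factors switch on the genes that build the spindle and separate the chromosomes. RNA of the genes that E2F switches on peaks around the start of S phase, and RNA of the mitotic genes in G2 and M. Both are widely used as markers of dividing cells.

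The values are normalized counts, that is, reads scaled by the authors with 1 factor for each library. The steps between the values correspond to 17511450 to 17970104 reads per library. Of the epithelial markers, 7 of 8 reached 10 normalized counts in every library, with summed levels of 46321 and 48424 in rIL17 against 54310 and 58553 in PBS. Krt8 and Krt18 hold most of these sums, at 25498 and 15966 in rIL17 replicate 1. Of the 7 epithelial markers tested, 5 had a negative and 2 a positive log2 fold change. The part of these markers in the cell cycle values was not tested. Leukocyte markers summed to at most 5.03 normalized counts in any library, with Ptprc at 3.02 and 2.01 in rIL17 and at 0 in both PBS libraries, and endothelial markers to at most 7.04. Of the fibroblast markers, Pdgfra had 2855 and 2862 normalized counts in rIL17 against 2328 and 2462 in PBS, and Col1a2 at most 2.01 in any library. Dcn had 62.3 and 46.1 in rIL17 against 26.5 and 17.9 in PBS, while Col1a1 had 29.2 and 30.1 in rIL17 against 51.0 and 37.8 in PBS. Levels varied with the GC content of transcripts, most in PBS replicate 2. Over tested genes under 40% GC, the median deviation from the gene's mean on the log2 scale was 0.36 and 0.20 in rIL17 replicates 1 and 2 against -0.02 and -0.52 in PBS replicates 1 and 2. The median log2 difference of PBS replicate 2 minus PBS replicate 1 was -0.47 over these genes and 0.08 over those with 60% or more.

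The RNA of the cell cycle genes differed little between rIL17 and PBS. None of the 36 was called by limma at an adjusted p below 0.05, where 0.807% of all tested genes were called, and the smallest adjusted p among them was 0.231, for Ccne2. Of the 36, 34 differed by less than 1.25-fold, as did 81.2% of all tested genes and 89.8% of those with a mean of at least 1000 normalized counts. The 95% confidence intervals of 34 members lay wholly within a 1.5-fold difference in either direction, while those of Ccne2 and Bub1 reached beyond it. The same held for 68.5% of all tested genes and for 90.3% of those with a mean of at least 1000 normalized counts. The median log2 fold change was -0.02 over the 36 members and -0.003 over all tested genes. Unadjusted, 2 members, Ccne2 and Bub1, had a p below 0.05, against 16.6% of all tested genes. Both rIL17 libraries lay above both PBS libraries for 10 members and below both for 10, where 25.8% and 25.4% of all tested genes did so. These are RNA levels of whole cultures, in which fewer cells in a phase and less RNA per cell cannot be told apart.

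**Figure D1:**
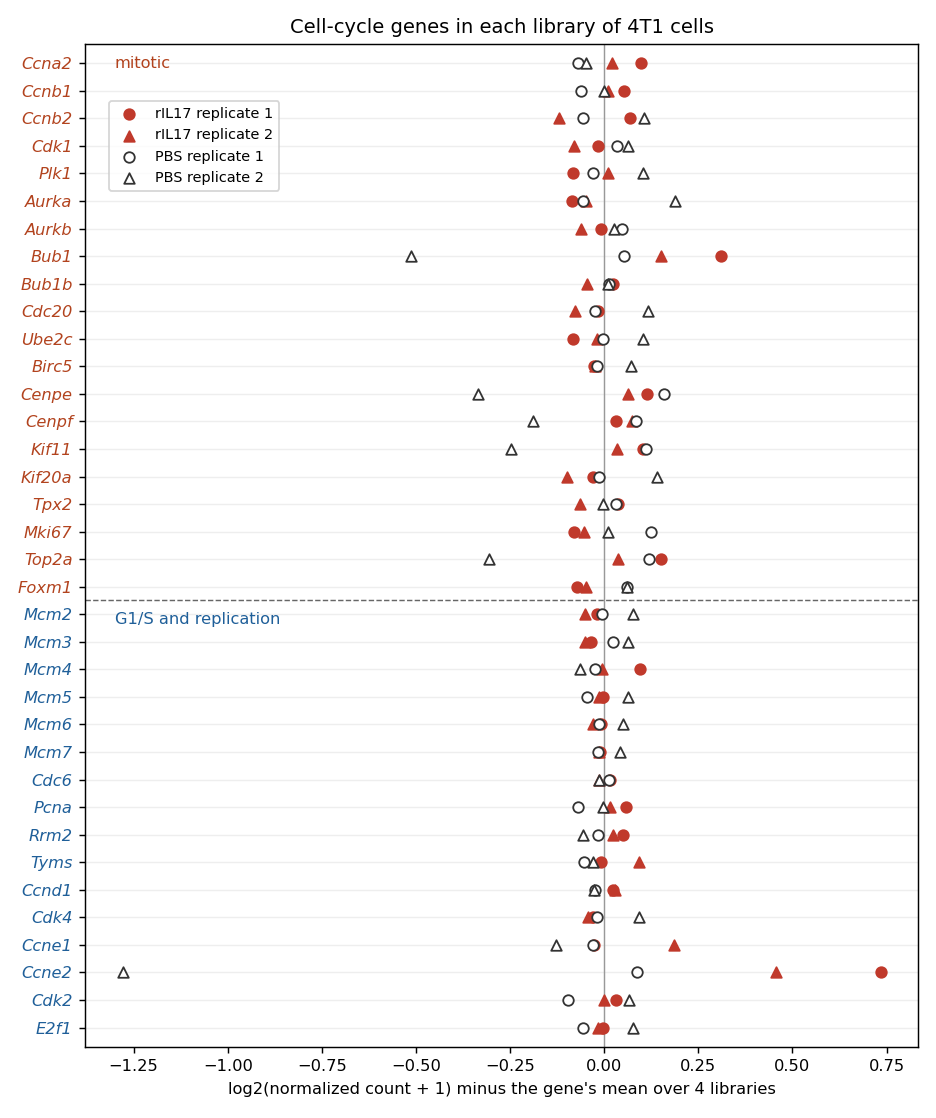
Level of each of the 36 genes in each library, as log2(normalized count + 1) minus the gene's mean over the 4 libraries; filled red symbols are rIL17 and open symbols PBS, circles replicate 1 and triangles replicate 2, with mitotic genes above the dashed line. Most genes lie within about 0.2 of their mean in every library, and PBS replicate 2 lies far to the left for Ccne2, Bub1, Cenpe, Top2a, Kif11 and Cenpf.

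The promoters of the members were searched for the elements by which the 2 classes are known to be controlled, and 4 that hold them are shown. In the promoters of mitotic genes, the CHR element is bound by the DREAM complex, which represses them in resting cells, and by B-MYB with FOXM1, which activates them in G2. CCAAT boxes, bound by NF-Y, often lie close to it, and E2F elements are typical of G1/S genes. RefSeq promoter windows, from 250 bases before to 50 after the start, were matched on build GRCm38.p6 for 15 of 20 mitotic and 13 of 16 G1/S and replication genes. For Mcm7, E2f1 and Cdc6 the matched start lay 539, 466 and 350 bases from the annotated 5′ end of the gene, so their windows do not reach that end. Both strands were searched. The CHR letters were TTTGAA, and the variant spelled TTCGAA was counted with them. The NF-Y box was CCAAT. The E2F letters were TTTNGCGC. Printed are the 150 bases before the start, 5′ to 3′ on the gene's strand, with matches to any of these motifs on either strand in capitals. In Mcm6 the E2F matches on the opposite strands at the first site overlap by 4 bases, so they form 1 block of capitals.
Mki67 (chr7:135716380-135716529, minus strand): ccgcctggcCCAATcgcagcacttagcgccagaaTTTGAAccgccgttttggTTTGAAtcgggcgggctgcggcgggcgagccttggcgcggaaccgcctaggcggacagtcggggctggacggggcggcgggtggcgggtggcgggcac
Cdc20 (chr4:118437344-118437493, minus strand): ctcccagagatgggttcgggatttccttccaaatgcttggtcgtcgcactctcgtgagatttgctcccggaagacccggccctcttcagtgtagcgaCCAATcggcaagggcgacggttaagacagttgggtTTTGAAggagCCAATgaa
Cdk1 (chr10:69352913-69353062, minus strand): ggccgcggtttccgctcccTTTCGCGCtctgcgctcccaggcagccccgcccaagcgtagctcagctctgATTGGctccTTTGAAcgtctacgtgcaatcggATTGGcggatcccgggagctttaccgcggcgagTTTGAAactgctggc
Mcm6 (chr1:128359706-128359855, minus strand): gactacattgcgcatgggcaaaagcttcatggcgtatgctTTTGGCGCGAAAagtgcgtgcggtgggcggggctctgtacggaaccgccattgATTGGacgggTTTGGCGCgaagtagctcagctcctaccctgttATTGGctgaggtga

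The CHR letters occurred in 12 of 15 mitotic windows (80%), in 2 of 13 G1/S and replication windows (15.4%, Mcm2 and Mcm7) and in 14.5% of the windows of 12426 genes of the table. CCAAT occurred in 14 of 15 mitotic windows (93.3%), 8 of 13 G1/S and replication windows (61.5%) and 38.3% of all. The E2F letters were found in 4 of 13 G1/S and replication windows (30.8%: Mcm3, Mcm5, Mcm6 and Mcm7), in 1 of 15 mitotic windows (6.67%, Cdk1) and in 2.16% of all. A match of letters is a description of the window and not evidence of binding. The values of the genes shown are given below with their classes.

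Among the genes that open the cycle, Ccnd1, encoding cyclin D1, was the most abundant member per kilobase of annotated exon. It had 34882 and 34982 normalized counts in rIL17 against 33695 and 33627 in PBS, a log2 fold change of 0.05 (SE 0.05, 95% confidence interval -0.08 to 0.18). Both rIL17 libraries lay above both PBS libraries, by a margin of about 1.04-fold that did not pass (limma adjusted p = 0.655). Cdk4, encoding the kinase partner of cyclin D, had 7352 and 7286 normalized counts in rIL17 against 7403 and 8011 in PBS, with a log2 fold change of -0.07 (interval -0.22 to 0.08). Per kilobase of annotated exon, the ratio of Ccnd1 to Cdk4 was 3.27 and 3.31 in rIL17 against 3.14 and 2.90 in PBS. Cdk2, encoding the partner of cyclins E and A, and E2f1, encoding a transcription factor that the retinoblastoma protein restrains, had log2 fold changes of 0.03 and -0.02. In both genes the PBS libraries lay on either side of the rIL17 libraries.

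The cyclin E genes were the least abundant members per kilobase of annotated exon, and Ccne2 had the largest difference of the 36. Ccne2 encodes cyclin E2 (ENSMUSG00000028212, mm10 chr4:11191351-11204779, plus strand) and had 400 and 330 normalized counts in rIL17 against 255 and 98.4 in PBS. PBS replicate 2 was far below the other 3 libraries, and the rIL17 libraries lay above both PBS libraries. The log2 fold change was 1.19 (SE 0.41, 95% confidence interval 0.21 to 2.17, limma adjusted p = 0.231). Without PBS replicate 2 it was 0.51, without PBS replicate 1 it was 1.87, and with each library corrected for transcript GC content it was 0.57. Its longest transcript has a GC content of 36.3%, the lowest of the 36. Ccne2 also lies opposite Ints8, a gene on the other strand, whose counts were 1024 and 943 in rIL17 against 1070 and 683 in PBS. Ccne1, encoding cyclin E1 (transcript GC content 52.7%), had 229 and 266 normalized counts in rIL17 against 229 and 214 in PBS, a log2 fold change of 0.16 (interval -0.16 to 0.47). Per kilobase of annotated exon, the ratio of Ccne2 to Ccne1 was 1.33 and 0.946 in rIL17 against 0.850 and 0.351 in PBS.

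The replication genes were nearly level between the groups. Mcm2 to Mcm7, which encode the 6 subunits of the replicative helicase that is loaded at origins in G1, had log2 fold changes from -0.09 (Mcm3) to 0.09 (Mcm4), with 5 lower, of which Mcm5 and Mcm7 were higher with the GC correction, 1 higher and 0 called. Mcm3 had 7190 and 7104 normalized counts in rIL17 against 7476 and 7687 in PBS, and Mcm2 had 4267 and 4179 in rIL17 against 4307 and 4561 in PBS. In both genes the rIL17 libraries lay below the PBS libraries, with log2 fold changes of -0.09 and -0.07. With the GC correction those of Mcm3 and Mcm2 were -0.03 and -0.02. Mcm4 had 4330 and 4040 normalized counts in rIL17 against 3990 and 3881 in PBS. It was the only helicase gene with both rIL17 libraries above both PBS libraries, and its log2 fold change was 0.006 with the GC correction. Mcm6, with the E2F letters printed above, had 7674 and 7569 in rIL17 against 7652 and 8001 in PBS. For Mcm5, Mcm6 and Mcm7 the groups overlapped, with log2 fold changes of -0.02, -0.04 and -0.03. The helicase genes spanned 607 to 1905 normalized counts per kilobase of annotated exon in rIL17 and 637 to 2021 in PBS, a span of 3.14-fold in rIL17 and 3.17-fold in PBS.

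Cdc6, which encodes the factor that loads the helicase onto origins, had 1716 and 1681 normalized counts in rIL17 against 1713 and 1683 in PBS, and a log2 fold change of 0.00052 (95% confidence interval -0.16 to 0.16). The groups overlapped. Pcna, encoding the sliding clamp of DNA polymerases, had 8002 and 7772 normalized counts in rIL17 against 7334 and 7673 in PBS. Rrm2, encoding the regulated subunit of ribonucleotide reductase, had 3739 and 3673 in rIL17 against 3575 and 3474 in PBS. Tyms, encoding thymidylate synthase, had 2068 and 2217 in rIL17 against 2006 and 2037 in PBS. In these genes for the clamp and for nucleotide supply both rIL17 libraries lay above both PBS libraries, with log2 fold changes of 0.07, 0.07 and 0.08, and 0 were called; with the GC correction that of Pcna was -0.016. The upper ends of their 95% confidence intervals were 0.21, 0.21 and 0.25.

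**Figure D2:**
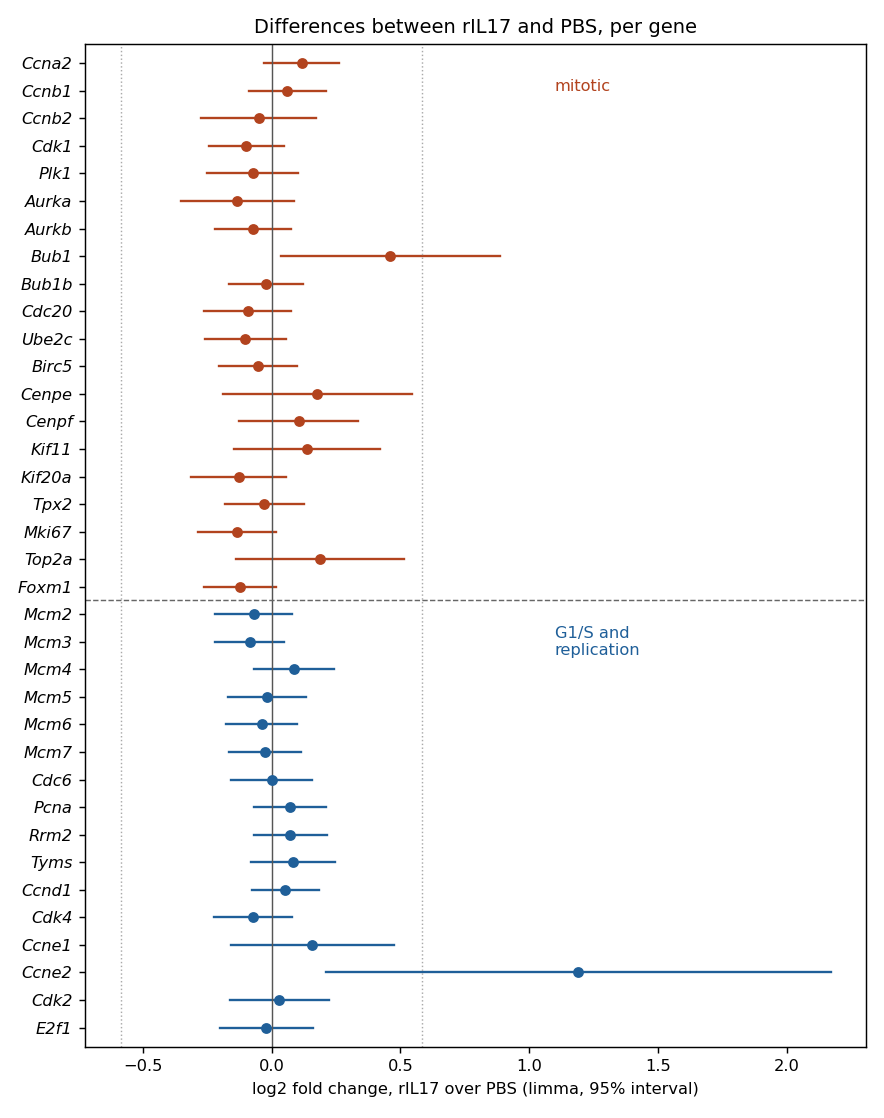
Log2 fold change of each of the 36 genes, rIL17 over PBS, with its 95% confidence interval from limma; mitotic genes are above the dashed line, and the dotted lines mark 1.5-fold in either direction. The intervals of 34 genes lie between the dotted lines, and those of Ccne2 and Bub1 pass the right one and exclude 0 before adjustment for the number of genes. Intervals within 1.5-fold were found for 68.5% of all tested genes and 90.3% of those with a mean of at least 1000 normalized counts.

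In the mitotic class, the genes of the CDK1 engine went both ways. Ccna2, encoding cyclin A2, had 4534 and 4300 normalized counts in rIL17 against 4038 and 4100 in PBS, a log2 fold change of 0.12 (SE 0.06, limma adjusted p = 0.387). Cdk1 itself had 4089 and 3915 in rIL17 against 4239 and 4323 in PBS, a log2 fold change of -0.10 (SE 0.06, adjusted p = 0.460). The groups did not overlap in either gene, with rIL17 above PBS for the cyclin and below it for the kinase. Ccnb1, encoding cyclin B1, had 3037 and 2948 in rIL17 against 2808 and 2928 in PBS, while for Ccnb2, encoding cyclin B2, the groups overlapped at 2584 and 2266 in rIL17 against 2368 and 2651 in PBS. Per kilobase of annotated exon, the ratio of Ccnb2 to Ccnb1 was 2.34 and 2.12 in rIL17 against 2.32 and 2.49 in PBS.

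The mitotic kinase genes had log2 fold changes from -0.13 to -0.07. With the GC correction those of Aurka, Aurkb and Plk1 were -0.09, -0.02 and -0.01. Aurka, which encodes the Aurora A kinase of the spindle poles, had 2664 and 2733 normalized counts in rIL17 against 2720 and 3219 in PBS. Its log2 fold change of -0.13 (SE 0.09, limma adjusted p = 0.505) was -0.01 without PBS replicate 2, the highest library. Aurkb, encoding the Aurora B kinase of the chromosomal passenger complex, had 2808 and 2707 in rIL17 against 2920 and 2876 in PBS, with both rIL17 libraries below both PBS libraries. Plk1, encoding Polo-like kinase 1, had 3070 and 3273 in rIL17 against 3185 and 3491 in PBS, and its groups overlapped. Tpx2, encoding the activator that brings Aurora A to spindle microtubules, had a log2 fold change of -0.03 and overlapping groups.

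Of the genes of the spindle checkpoint and of the anaphase-promoting complex that it restrains, Bub1 had the largest difference of the mitotic class. Bub1, encoding a checkpoint kinase of the kinetochore (mm10 chr2:127801122-127831865, minus strand), had 2169 and 1944 normalized counts in rIL17 against 1814 and 1225 in PBS. Both rIL17 libraries lay above both PBS libraries, and PBS replicate 2 was the lowest of the 4 by a wide margin. The log2 fold change was 0.46 (SE 0.18, 95% confidence interval 0.04 to 0.89, limma adjusted p = 0.271), 0.18 without PBS replicate 2 and 0.14 after the GC correction. Without PBS replicate 1 it was 0.74. Bub1b, encoding the checkpoint protein BUBR1, had 4541 and 4327 in rIL17 against 4502 and 4495 in PBS, a log2 fold change of -0.02. Cdc20, encoding the activator of the anaphase-promoting complex, had 5176 and 4960 in rIL17 against 5146 and 5667 in PBS, and Ube2c, encoding the ubiquitin-conjugating enzyme of that complex, had 4305 and 4498 in rIL17 against 4549 and 4896 in PBS. Their log2 fold changes were -0.09 and -0.10, and the groups overlapped for Cdc20 and not for Ube2c. With the GC correction the log2 fold changes of Cdc20 and Ube2c were -0.03 and -0.04.

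The large motor and kinetochore genes shared 1 pattern, in which PBS replicate 2 was low. Cenpe, encoding a kinesin of the kinetochore, had 2482 and 2395 normalized counts in rIL17 against 2558 and 1816 in PBS. Cenpf, encoding a large kinetochore protein, had 3708 and 3814 in rIL17 against 3842 and 3182 in PBS, and Kif11, encoding the spindle motor Eg5, had 3066 and 2923 in rIL17 against 3083 and 2405 in PBS. In each of them PBS replicate 1 lay above both rIL17 libraries and PBS replicate 2 below both. Their log2 fold changes of 0.18, 0.11 and 0.14 changed sign without PBS replicate 2, to -0.07, -0.03 and -0.04. Kif20a, encoding a kinesin of cytokinesis, had 2526 and 2411 in rIL17 against 2557 and 2845 in PBS, and Birc5, encoding survivin of the chromosomal passenger complex, had 3097 and 3100 in rIL17 against 3116 and 3314 in PBS. In both genes the rIL17 libraries lay below the PBS libraries, with log2 fold changes of -0.13 and -0.05.

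Mki67, encoding the proliferation antigen Ki-67, had the lowest log2 fold change of the 36. It had 10111 and 10285 normalized counts in rIL17 against 11639 and 10760 in PBS, and the rIL17 libraries lay below both PBS libraries. The log2 fold change was -0.13 (SE 0.06, 95% confidence interval -0.28 to 0.02, limma adjusted p = 0.345), and the values of the 4 alternatives that left out a library ran from -0.19 to -0.08. Foxm1, encoding the transcription factor of G2 genes, had 3499 and 3562 in rIL17 against 3838 and 3843 in PBS. Its replicates lay close together in both groups, and its log2 fold change was -0.12 (SE 0.06, interval -0.26 to 0.02, adjusted p = 0.351). With the GC correction the log2 fold changes of Foxm1 and Mki67 were -0.06 and -0.18. Top2a, encoding the topoisomerase that untangles sister chromatids, had 21778 and 20085 normalized counts in rIL17 against 21289 and 15845 in PBS. Its log2 fold change of 0.19 was -0.03 without PBS replicate 2.

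The 2 members with the largest differences have AT-rich transcripts. In 6 members the longest transcript has a GC content below 44%, a limit set after the values were seen: Ccne2, Bub1, Kif11, Cenpe, Cenpf and Top2a. In these 6, PBS replicate 2 lay below PBS replicate 1 by a median of 0.46 on the log2 scale, and all 6 had a positive log2 fold change, with a median of 0.18. In the other 30, PBS replicate 2 lay 0.06 above PBS replicate 1 at the median, and the log2 fold changes ran from -0.13 to 0.16 with a median of -0.03. Over all tested genes, the median log2 fold change was 0.22 at a GC content of at least 40% and below 44%, and 0.54 below 40%. The share of tested genes with a positive log2 fold change was 83.0% and 92.9% in these 2 ranges, so a positive sign is usual at this GC content. Across the 36 members, GC content had a Pearson correlation of 0.72 with the difference PBS replicate 2 minus PBS replicate 1 and of -0.71 with rIL17 minus PBS replicate 2. With rIL17 minus PBS replicate 1 the correlation was -0.45, or -0.21 without Ccne2. The rIL17 libraries also differed along GC content, with a correlation of 0.54 for rIL17 replicate 2 minus rIL17 replicate 1. These correlations share libraries and describe these 4 libraries only. With PBS replicate 2 left out, 1 member was called, Ccne2, against 5.52% of all tested genes. With PBS replicate 1 left out, 8 members were called, Ccne2, Bub1, Cenpe, Top2a, Kif11 and Cenpf above PBS and Aurka and Kif20a below it, against 22.2% of all tested genes. In these fits the lone PBS library is assumed to vary like the rIL17 libraries. For the 6 members below 44% GC this did not hold. Their median log2 difference of replicate 2 minus replicate 1 was -0.46 in PBS and -0.09 in rIL17. In the other 30 it was 0.06 in PBS and -0.02 in rIL17, but a median of signed differences does not measure spread. Among these 30, Aurka and Kif20a differed by 0.24 and 0.15 in PBS against 0.04 and -0.07 in rIL17. Their PBS replicates thus also lay further apart than their rIL17 replicates.

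**Figure D3:**
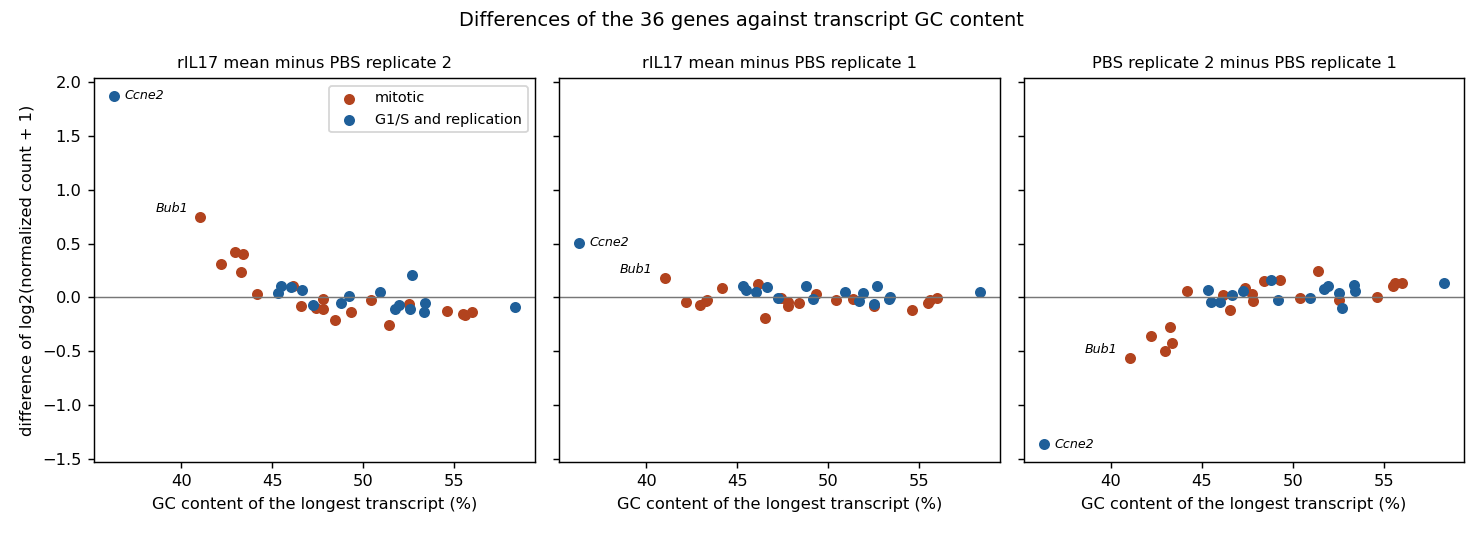
Difference of log2(normalized count + 1) for each of the 36 genes against the GC content (%) of its longest transcript, for the rIL17 mean minus PBS replicate 2 (left), the rIL17 mean minus PBS replicate 1 (middle) and PBS replicate 2 minus PBS replicate 1 (right). Genes below 44% lie high on the left and low on the right, while in the middle only Ccne2, at 0.51, lies far from 0.

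The comparison of the mitotic genes with the G1/S and replication genes asks whether the phases of the cycle moved apart. Of the 20 mitotic genes, 7 had a positive and 13 a negative log2 fold change, with a median of -0.05; of the 16 G1/S and replication genes, 9 were positive and 7 negative, with a median of 0.02 that was -0.02 with upper-quartile and -0.01 with total-count scaling. The median over all tested genes was -0.003. Both rIL17 libraries lay above both PBS libraries for 3 mitotic and 7 G1/S and replication genes, and below both for 7 mitotic and 3 G1/S and replication genes, again with 25.8% and 25.4% among all tested genes. The mean log2 level of the mitotic genes minus that of the G1/S and replication genes was 0.23 and 0.21 in rIL17 against 0.31 and 0.30 in PBS. The groups did not overlap, and the difference between them was -0.08. Without Ccne2 the same quantity was 0.03 and -0.01 in rIL17 against 0.07 and -0.03 in PBS, a difference of -0.01 with overlapping groups. Over the 15 mitotic and 15 G1/S and replication genes of at least 44% GC it was -0.01 and -0.04 in rIL17 against 0.04 and 0.06 in PBS. The difference was -0.08, without overlap. The 44% limit was set after the values were seen. It leaves out 5 mitotic genes and 1 G1/S gene, all with a positive log2 fold change, so this version cannot show whether the classes moved apart. The difference of medians over all members was -0.067, and -0.065 with the GC correction. In the version without Ccne2 the replicates of each group lay further apart than the groups, so it shows no direction. The replicate SD of 0.0132 is that of the difference over all members, with Ccne2, and does not apply to the version without it. A score over chosen genes was not tested, and 2 libraries against 2 are too few for an exact permutation test to reach 0.05.

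**Figure D4:**
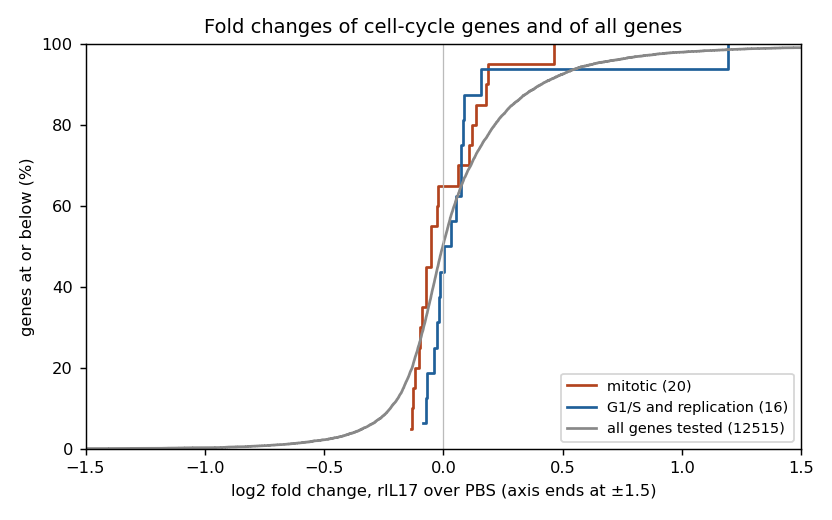
Cumulative share (%) of genes at or below each log2 fold change, rIL17 over PBS, for the 20 mitotic genes, the 16 G1/S and replication genes and all 12515 tested genes. The medians are -0.05 for the mitotic and 0.02 for the G1/S and replication genes, and the far right steps are Bub1 and Ccne2.

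Further genes of the same processes were taken from lists of other mitotic genes, other replication genes, inhibitors and growth-signal genes. Of 35 other mitotic genes, all tested, 17 were higher and 18 lower in rIL17, and 0 were called. Their log2 fold changes had a median of -0.01. The smallest p among them was that of Smc4, encoding a condensin subunit, with 4765 and 4436 normalized counts in rIL17 against 3202 and 1822 in PBS, a log2 fold change of 0.93 (SE 0.24, limma adjusted p = 0.154). It was 0.52 without PBS replicate 2, and the transcript GC content is 40.2%. Nusap1, encoding a spindle protein, and Ect2, encoding a protein of cytokinesis, followed with log2 fold changes of 0.39 and 0.29, or 0.18 and 0.15 without PBS replicate 2. After the GC correction that of Nusap1 was 0.11, and that of Ect2 changed sign to -0.09.

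Of 41 other replication and G1/S genes, all tested, 19 were higher and 22 lower in rIL17 with a median of -0.02, and 0 were called. Pola1, encoding the catalytic subunit of DNA polymerase alpha, had 1344 and 1356 normalized counts in rIL17 against 1125 and 840 in PBS (log2 fold change 0.47, adjusted p = 0.182, and 0.26 without PBS replicate 2). Cdc7, encoding a kinase that fires origins, had a log2 fold change of 0.26. Fen1, encoding a flap endonuclease of lagging-strand synthesis, had one of -0.32 with 112 and 115 normalized counts in rIL17 against 144 and 140 in PBS. Without PBS replicate 2 the log2 fold changes of Cdc7 and Fen1 were 0.14 and -0.34. With the GC correction those of Pola1, Cdc7 and Fen1 were 0.18, 0.11 and -0.26.

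Of 20 listed genes that restrain the cycle or mark exit from it, 17 were tested. Of these, 15 had a positive and 2 a negative log2 fold change, where 49.3% of all tested genes were positive, with a median of 0.15, and 0 were called. The list has a median transcript GC content of 47.0%, and the positive share of all tested genes was 58.9% from 44% to 48% GC and 83.0% from 40% to 44%. The part of GC content in the list's count was not tested. Both rIL17 libraries lay above both PBS libraries for 10 of the 17, against 25.8% of all tested genes. Ccng2, encoding cyclin G2, which is linked to cell cycle exit, had 1997 and 1746 normalized counts in rIL17 against 1352 and 1276 in PBS. Its log2 fold change was 0.51 (SE 0.09, limma adjusted p = 0.0711), and 0.47 without PBS replicate 2. Cdkn1b, encoding the CDK inhibitor p27, had 1770 and 1607 in rIL17 against 1342 and 1294 in PBS, a log2 fold change of 0.36 (SE 0.08, adjusted p = 0.113), and 0.33 without PBS replicate 2. Rb1, encoding the retinoblastoma protein, had 323 and 281 in rIL17 against 201 and 128 in PBS, a log2 fold change of 0.90 that was 0.58 without PBS replicate 2. In all 3 genes the groups did not overlap. Their transcripts have a GC content of 42.8%, 43.1% and 41.2%, and the GC-corrected log2 fold changes were 0.29, 0.16 and 0.59.

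Of 8 listed genes through which growth signals enter the cycle, 7 were tested; 3 were higher and 4 lower in rIL17, with a median of -0.005, and 0 were called. Cdk6, encoding the other partner of cyclin D, had 4362 and 4183 normalized counts in rIL17 against 3796 and 3320 in PBS, a log2 fold change of 0.27 (adjusted p = 0.191). Myc, encoding a transcription factor of growth genes, had 3396 and 3552 in rIL17 against 3844 and 3961 in PBS, a log2 fold change of -0.17 (adjusted p = 0.256). The groups did not overlap in either gene. Without PBS replicate 2 the log2 fold changes of Cdk6 and Myc were 0.17 and -0.15, and with the GC correction 0.17 and -0.11. Ccnh, encoding cyclin H of the CDK-activating kinase, had a log2 fold change of 0.36, of 0.03 without PBS replicate 2 and, with its sign changed, of -0.11 after the GC correction.

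Counting limits some of these values. The directional libraries keep the strand of the RNA, but no source used here gives the strand setting of the counting. If strand was not used, reads of overlapping genes on opposite strands cannot be told apart, and 14 of the 36 members have such a neighbour in GENCODE M21, protein-coding for 9 of them, including Ccna2, Cdc20, Ube2c, Mcm7, Cdk2, Cdk4 and Ccne2.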

How the data were processed

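The authors deposited 1 table of gene values for 4 directional total RNA libraries. Named in the submitters' processing notes are HISAT2 2.0.5, featureCounts 1.5.0-p3, CASAVA and mm10; the annotation release, strand setting and scaling tool were not found in the labels. The deposited values are a normalized signal: in every library 100% of them lie within 0.001 of whole multiples of 1 step (0.981 to 1.005), as read counts divided by a size factor would. The depth these steps give is 17511450 to 17970104 reads. A floor of 3 reads, a chosen setting, lies near 3 normalized counts.

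A gene entered the test if both libraries of either group held 10 or more normalized counts and its mean CPM, computed here, was 1 or more. limma 3.58.1 in R 4.3.3 fitted log2(normalized count + 1) with a variance trend and Benjamini-Hochberg adjustment over all 12515 genes; fold changes are on that scale. The fit was tested on simulated counts in which 200 genes were changed by known folds. The simulation held no GC-dependent difference between libraries, so it does not cover that feature of these data. Symbols matched 21819 of 21840 rows; positions, exon lengths (union of exons) and GC content (longest transcript) are from GENCODE M21 on mm10. All 36 members are named, and from each list of other genes the 3 with the smallest p. Members and lists were chosen with earlier results of these data known. Alternatives were other scalings, filters and pseudocount, a GC correction by loess, the replicate number as a block, leaving out each library and, added after seeing the data, limma-voom and total-count scaling. The count tests and TMM scaling that had been planned were not run, since the steps of 3 libraries lie too close to 1 for whole reads to be accepted as recovered; the read totals given rest on these steps.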

Additional observations from a re-analysis of the deposited data

How the results depend on the processing

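No member was called under any filter, scaling or pseudocount tried, with limma-voom or with the GC correction. Over all genes, 101 were called (78 higher, 23 lower). With the filter at a mean of 1 normalized count limma called 0 (2642 had an unadjusted p below 0.05), and with no filter 0 (2739 unadjusted), while limma-voom called 137 of the filtered genes. The count was 179 (135 and 44) with upper-quartile scaling and 316 (207 and 109) with the GC correction, and 38 were lower with total-count scaling. Leaving out each library gave 1 to 2773 genes (1 to 2056 higher, 0 to 717 lower) and 0 to 8 members; a lone library was assumed to vary like the others. The labels do not say that replicate numbers pair libraries, and the differences of replicate 1 minus replicate 2 in the 2 groups correlated across genes with a Pearson r of 0.157. With the replicate block 1032 genes were called (877 and 155), 8.25% of all, and 2 members, Ccne2 and Bub1; block and GC correction together gave 654 genes (378 and 276) and 0 members. The cause of these changes was not tested.

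The median log2 fold change of the mitotic members was -0.088 with upper-quartile scaling. That of the G1/S and replication members was -0.021 with upper-quartile and -0.014 with total-count scaling, and ran from -0.018 to 0.049 over the libraries left out. The difference of the medians ran from -0.077 to -0.040. Uncalled members changed sign with upper-quartile scaling (Cdk2 -0.0061, Cdc6 -0.036), with total-count scaling (Cdc6 -0.029) and with the GC correction, alone or with the block (Cenpe -0.030, Kif11 -0.12, Pcna -0.016, Cenpf -0.084, Ccnb1 -0.081, Mcm7 0.033, Bub1b 0.017, E2f1 0.041, Mcm5 0.035). Over the libraries left out, the log2 fold change ran from 0.51 to 1.87 for Ccne2, 0.18 to 0.74 for Bub1, -0.026 to 0.40 for Top2a, -0.069 to 0.425 for Cenpe, -0.042 to 0.32 for Kif11, -0.031 to 0.24 for Cenpf, -0.145 to 0.044 for Ccnb2, -0.056 to 0.0048 for Mcm7, -0.079 to 0.023 for Tpx2, -0.050 to 0.11 for Cdk2, -0.056 to 0.014 for Bub1b, -0.088 to 0.047 for E2f1, -0.070 to 0.037 for Mcm5 and -0.014 to 0.015 for Cdc6. edgeR, DESeq2 and TMM scaling were planned and not run, because in 3 libraries the step between values lies too close to 1 for whole reads to be accepted as recovered.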
